A study of Homo sapiens with 9 samples.

Results

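The kallikrein-related peptidases are secreted serine proteases of epithelia, and SPINK5 encodes LEKTI, the secreted inhibitor that restrains several of them in skin. The set described here holds 10 of the 16199 genes listed in the series and was chosen by name: KLK5, KLK6, KLK7, KLK8, KLK9, KLK10, KLK11, KLK13, KLK14 and SPINK5. RNA was sequenced from HaCaT, an immortalized human keratinocyte line with the genotype WT, in 3 groups of 3 libraries. All cells were post-confluent and in serum-free medium. They had no addition (untreated), or 24 h of EGF (epidermal growth factor) at 10 nM or of bleogen pB1 at 1 µM. The sample titles give no time for the untreated cells. Bleogen pB1 is a cactus peptide studied as an agonist of the EGF receptor. The doses of the EGF and bleogen pB1 treatments differ, and both are compared with the same untreated libraries. The labels do not say whether replicates were separate cultures, so the p-values measure the spread between these libraries, which may be technical.

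In the epidermis, kallikreins are made as inactive precursors and form a proteolytic cascade in which KLK5 can activate itself and other members, among them KLK7 and KLK14. The active enzymes cleave corneodesmosin and desmosomal cadherins, the proteins that hold corneocytes together, and thereby allow shedding. LEKTI is cut into fragments that block KLK5, KLK7 and KLK14, and loss of SPINK5 causes Netherton syndrome, a disorder with a leaky, overly shedding skin barrier.

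Each library held between 20288417 and 21320994 expected counts (estimates that share a read between the transcripts it fits), and 3 counts corresponded to 0.141 to 0.148 CPM (counts scaled to library size). All 7 keratinocyte markers examined were present. Their summed levels in FPKM (fragments scaled for transcript length and library size) were 4924 to 5423 in untreated, 3872 to 4054 in EGF-treated and 4907 to 5805 in bleogen pB1-treated cells. Single keratinocyte markers went both ways with EGF, as in KRT5 (means of 3506 and 1547 FPKM) and KRT14 (1008 and 1772 FPKM). No fibroblast or endothelial marker reached 1 FPKM in any library, nor did any of the immune markers other than CD68 or the melanocyte markers other than MITF. The 6 markers of the granular layer, where kallikreins and LEKTI are secreted in skin, summed to 39.5 to 41.3 FPKM in untreated, 28.5 to 36.1 in EGF-treated and 36.4 to 45.4 in bleogen pB1-treated cells. These markers differed in direction with EGF. IVL was at 6.25 to 7.25 FPKM in untreated and 0.30 to 0.52 FPKM in EGF-treated cells, and the EGF libraries were also lower in KRT1 (means of 3.00 and 0.167 FPKM) and TGM1 (4.18 and 1.14 FPKM). KRT10 was higher (10.9 and 16.6 FPKM, with no overlap), FLG overlapped, and LORICRIN was at 0 or had no entry in all untreated libraries. The part of these marker values in the kallikrein values was not tested, and in bulk RNA fewer cells making a transcript cannot be told apart from less of it in each cell.

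The 9 kallikrein genes lie side by side on the minus strand of chromosome 19, in a stretch of 140943 bases from KLK5 to KLK14 (GRCh38, chr19:50943303-51084245) that also holds KLK12. This stretch is the telomeric part of the kallikrein cluster, which has 15 genes over 265100 bases (chr19:50819146-51084245). SPINK5 lies on the plus strand of chromosome 5 (chr5:148025683-148137382). Their NCBI gene numbers are 25818 for KLK5, 5653 for KLK6, 5650 for KLK7, 11202 for KLK8, 284366 for KLK9, 5655 for KLK10, 11012 for KLK11, 26085 for KLK13, 43847 for KLK14 and 11005 for SPINK5.

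RefSeq promoter windows (GRCh38.p14, 250 bases before to 50 bases after a transcription start) were held for 9 of the 10 genes, in 16 windows. Shown here are the 120 bases before the start for KLK5, the highest of the kallikreins, for both starts of KLK11, the gene of the set called between the EGF-treated and the bleogen pB1-treated cells, and for SPINK5, the inhibitor. Each is written on the strand of its gene. Capitals mark a TATA box (TATAAA) in SPINK5 and GC boxes (GGGCGG or its reverse complement) in KLK11.
KLK5, chr19:50953039-50953158, minus strand: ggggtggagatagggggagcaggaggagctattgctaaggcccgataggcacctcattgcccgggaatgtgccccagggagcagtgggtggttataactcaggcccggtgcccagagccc
KLK11, chr19:51027647-51027766, minus strand: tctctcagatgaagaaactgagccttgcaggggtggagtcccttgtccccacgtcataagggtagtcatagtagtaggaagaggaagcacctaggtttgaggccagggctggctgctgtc
KLK11, chr19:51026617-51026736, minus strand: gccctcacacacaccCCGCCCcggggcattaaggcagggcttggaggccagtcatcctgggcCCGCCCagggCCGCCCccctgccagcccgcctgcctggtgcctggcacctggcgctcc
SPINK5, chr5:148063860-148063979, plus strand: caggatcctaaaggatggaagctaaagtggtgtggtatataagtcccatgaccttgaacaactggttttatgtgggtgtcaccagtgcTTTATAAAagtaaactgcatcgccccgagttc

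Both strands of the 16 windows were searched for 5 short motifs. The AP-1 motif (TGANTCA), bound by factors downstream of growth factor signalling, was in no window of these genes and in 7.7% of 35116 windows of all genes. TATAAA was found in SPINK5 alone, where it begins 30 bases before the RefSeq start, and in 11.5% of all windows. Its reverse complement, which overlaps it in SPINK5, widens the capitals. GC boxes were in 10 of the 16 windows, those of KLK6, KLK7, KLK9, KLK11, KLK13 and KLK14, and in 45.0% of all windows. The C/EBP-type motif (TTNNGNAA) was in 4 of the 16 windows, those of KLK9, KLK10 and SPINK5 (36.8% of all windows), and the ETS-type motif (GGAAGT) in 1, of KLK10 (22.8% of all windows). None of the 5 motifs was in the KLK5 window. These matches are letters in a window and no measure of binding.

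The kallikreins of this cluster spanned more than 3 orders of magnitude in level per transcript length. In untreated cells KLK5 had the highest level at 239 ± 6.30 FPKM (SD, n = 3), and 2.1% of the 12394 genes tested were higher. KLK10 followed at 74.9 ± 2.41 FPKM, with 8.0% of genes higher. KLK8 at 24.1 ± 1.76 FPKM and KLK6 at 10.4 ± 0.661 FPKM were intermediate. The ranges of KLK7 and SPINK5, both near 3.5 FPKM, overlapped, so that the inhibitor was at the level of its target KLK7 and 1.74 times that of KLK11. KLK11, KLK9, KLK14 and KLK13 were lower still, and KLK14 and KLK13 overlapped. KLK5 stayed first and KLK10 second in all 9 libraries. The plot of levels by gene shows this order.

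**Figure D1:**
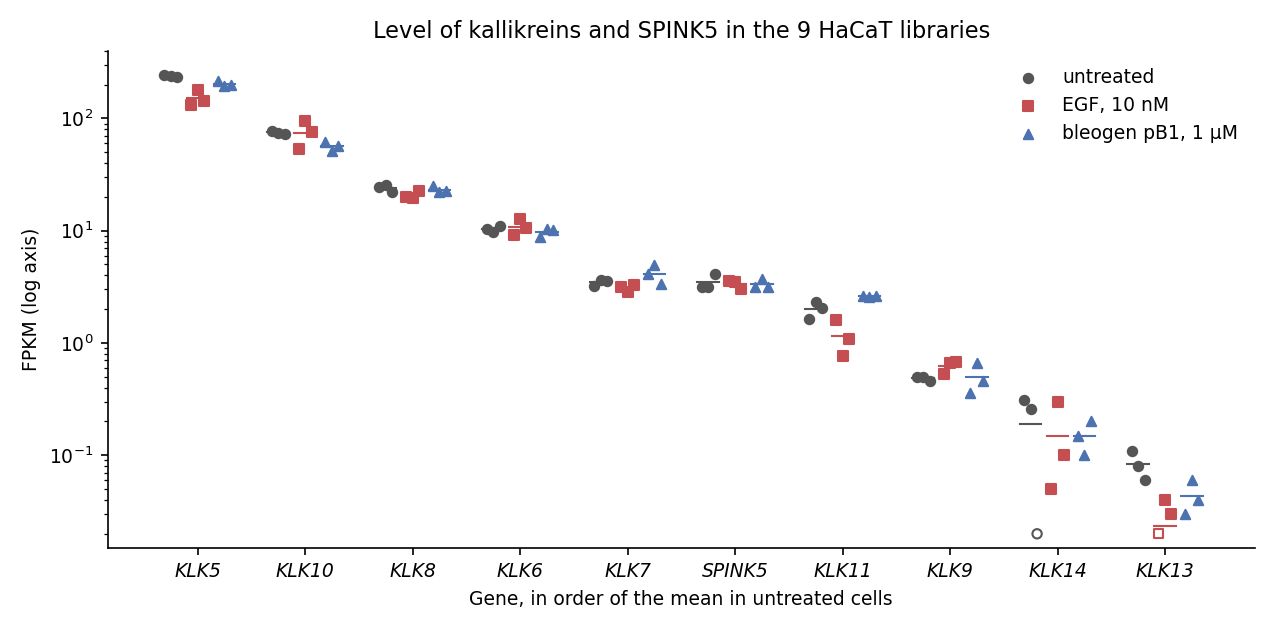
FPKM (log axis) of the 9 kallikrein-related peptidases and SPINK5, with 1 point per library, a line at the mean of 3 libraries and open symbols at the lower edge for a library in which the gene is not listed. KLK5 and KLK10 lie above all other members in every library, and SPINK5 lies beside KLK7 between 3.02 and 4.1 FPKM.

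KLK5, the trypsin-like initiator of the cascade, was lower in EGF-treated than in untreated cells. Its level was 245, 239 and 233 FPKM in the untreated libraries and 132, 179 and 143 FPKM in the EGF libraries. In the bleogen pB1 libraries it was 214, 194 and 198 FPKM. The 3 groups did not overlap, with untreated highest and EGF lowest. Against untreated cells the log2 fold change in counts was -0.59 with EGF (SE 0.09, 95% confidence interval -0.78 to -0.39, edgeR quasi-likelihood test, adjusted p = 8.8e-05), and KLK5 fell by 33.4%. Without EGF replicate 1, the EGF library with the lowest KLK5, the log2 fold change was -0.50 and fell just short of the fold limit, with an edgeR adjusted p of 0.00016. With bleogen pB1 it was -0.26 (SE 0.09, -0.46 to -0.07), which did not pass the test (edgeR, adjusted p = 0.11).

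Calls here and in what follows require an adjusted p of at most 0.05 over all 12394 genes tested and a log2 fold change of at least 0.5 in size. By these limits 36.9% of all genes tested were called between EGF-treated and untreated cells, 21.8% lower and the rest higher. Of the 10 genes of the set, 8 passed the filter on low counts, and KLK13 and KLK14 did not. Of these 8, 2 were called, KLK5 and KLK11, both lower with EGF, and 6 were not. A share of 2 in 8 is near both shares of all genes, so that this count shows nothing particular to the set. The median log2 fold change of the 8 was -0.05 and that of all genes tested -0.01. Libraries of the EGF and untreated groups did not overlap for 2 of the 8 genes, KLK5 and KLK9, against 70.4% of all genes tested.

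KLK11, a trypsin-like member also found in brain and prostate, was the other gene called. It had 38, 55 and 48 counts in the untreated libraries, 38, 18 and 28 with EGF and 62, 61 and 63 with bleogen pB1. The untreated and EGF groups met at 38 counts, whereas all bleogen pB1 libraries were above all others. The level was 1.99 ± 0.352 FPKM in untreated, 1.15 ± 0.419 FPKM in EGF-treated and 2.62 ± 0.0404 FPKM in bleogen pB1-treated cells. Against untreated cells the log2 fold change was -0.71 with EGF (SE 0.26, interval -1.28 to -0.14, edgeR adjusted p = 0.030) and 0.36 with bleogen pB1 (SE 0.24, interval -0.16 to 0.88, edgeR adjusted p = 0.41). The EGF call was lost without EGF replicate 2 (-0.48), EGF replicate 3 (-0.69), untreated replicate 2 (-0.57) or untreated replicate 3 (-0.71), with edgeR adjusted p of 0.116, 0.077, 0.116 and 0.063.

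KLK10, a family member first described in normal breast epithelium, varied between the EGF libraries, with an SD of 20.7 FPKM. It stood at 77.4, 74.6 and 72.6 FPKM in untreated cells and at 53.1, 94.4 and 75.2 FPKM with EGF. With bleogen pB1 it was 61.4, 51.5 and 57.0 FPKM. The EGF libraries lay below, above and within the untreated range, while all bleogen pB1 libraries were below the untreated ones. The log2 fold change with EGF was 0.05 (SE 0.15, interval -0.27 to 0.37, edgeR adjusted p = 0.78), and its sign turned with upper-quartile factors or no scaling factors. With bleogen pB1 it was -0.42 (SE 0.15, interval -0.74 to -0.10, edgeR adjusted p = 0.12), which was not called. The EGF library lowest in KLK10 was also the lowest in KLK5, and the one highest in KLK10 the highest in KLK5.

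**Figure D2:**
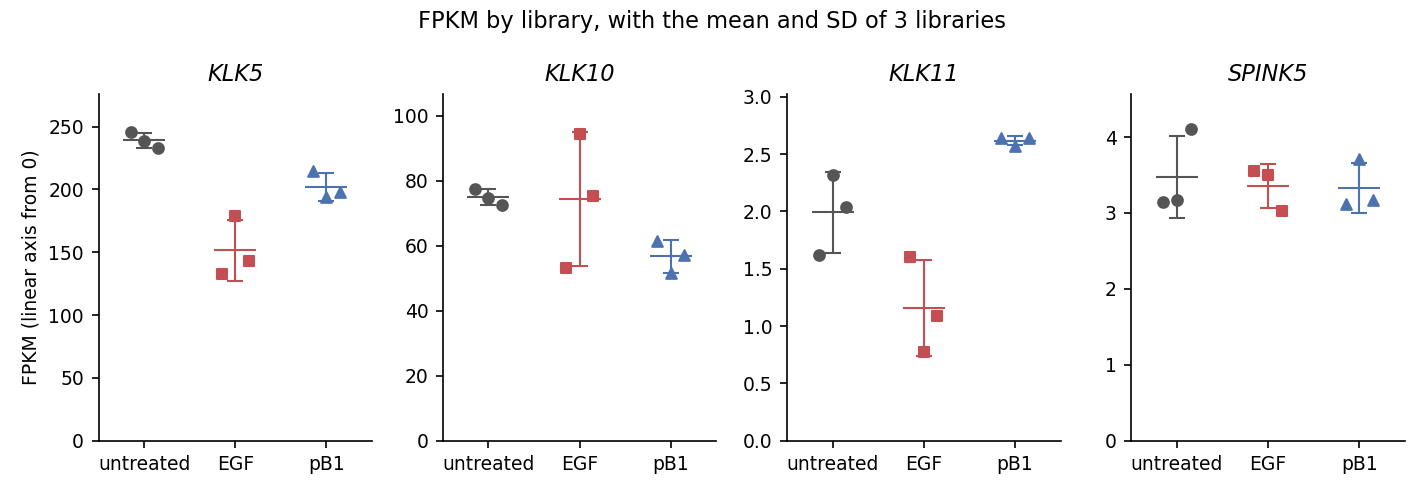
FPKM on linear axes from 0 for KLK5, KLK10, KLK11 and SPINK5, with 1 point per library and a bar for the mean ± SD of 3 libraries (pB1 is bleogen pB1). KLK5 separates the 3 groups, the EGF libraries of KLK10 spread from 53.1 to 94.4 FPKM, KLK11 is lowest with EGF and highest with bleogen pB1, and the groups of SPINK5 overlap.

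SPINK5, the inhibitor, showed no change that passed the test. Its level was 3.15, 3.17 and 4.10 FPKM in untreated, 3.55, 3.50 and 3.02 FPKM in EGF-treated and 3.12, 3.71 and 3.17 FPKM in bleogen pB1-treated cells. The groups overlapped throughout, and the highest value belonged to an untreated library. The log2 fold change was 0.03 with EGF (SE 0.13, interval -0.25 to 0.30, edgeR adjusted p = 0.86) and -0.08 with bleogen pB1 (SE 0.13, interval -0.35 to 0.20, edgeR adjusted p = 0.77). The sign with EGF turned with upper-quartile or no scaling factors. The intervals leave room for changes of about those sizes in either direction.

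KLK7, the chymotrypsin-like enzyme that cleaves corneodesmosin, had 127, 139 and 140 counts in untreated cells, 123, 109 and 133 with EGF and 162, 195 and 133 with bleogen pB1. Both treated groups overlapped the untreated one. The log2 fold change was -0.12 with EGF (SE 0.15, edgeR adjusted p = 0.49) and 0.23 with bleogen pB1 (SE 0.15, edgeR adjusted p = 0.39). KLK6 (neurosin), a trypsin-like enzyme also abundant in the nervous system, stood between 8.87 and 12.7 FPKM in all 9 libraries. Its groups overlapped, with log2 fold changes of 0.12 with EGF (SE 0.12, edgeR adjusted p = 0.38) and -0.10 with bleogen pB1 (SE 0.12, edgeR adjusted p = 0.64).

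KLK8 (neuropsin), a trypsin-like enzyme of the upper epidermis and the hippocampus, came close to the adjusted p limit with EGF, at a change under the fold limit. It had 431, 432 and 374 counts in untreated, 335, 326 and 372 in EGF-treated and 403, 355 and 385 in bleogen pB1-treated cells. Scaled to library size, the highest EGF library (17.9 CPM) lay just above the lowest untreated one, so that the groups overlapped in CPM. The log2 fold change was -0.23 with EGF (SE 0.10, interval -0.44 to -0.02, edgeR adjusted p = 0.053) and -0.16 with bleogen pB1 (SE 0.10, edgeR adjusted p = 0.37). Over the alternatives that kept all replicates, the EGF change was -0.333 to -0.212, with edgeR, DESeq2 or limma adjusted p of 0.010 to 0.084. The deposited transcript length of KLK8, which varies between libraries, was 895 to 927 bases in untreated and 835 to 878 bases in EGF-treated cells, with no overlap. Bleogen pB1 libraries, at 852 to 900 bases, overlapped both. Such a separation was not particular to KLK8. Lengths of KLK7 were 1954 to 1989 bases in untreated and 1934 to 1952 bases in EGF-treated cells. Those of KLK6 were 1665 to 1672 bases in untreated and 1673 to 1688 bases in bleogen pB1-treated cells. The share of all genes with separate lengths was not computed.

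KLK9 was scarce, with 14, 14 and 13 counts in untreated, 15, 19 and 20 with EGF and 10, 19 and 13 with bleogen pB1. The EGF libraries were above the untreated ones by a few counts. The log2 fold change was 0.43 (SE 0.31, interval -0.24 to 1.09, edgeR adjusted p = 0.24). Values of KLK8 and KLK9 are uncertain. The genes share 204 exonic bases on the same strand, and a read-through gene that joins them (GENCODE 44, GRCh38) covers 747 exonic bases of KLK8 and 1390 of KLK9. Of all 50-base stretches of their transcripts, 34.1% for KLK8 and 93.0% for KLK9 also occur on the same strand in another gene. All of these occur in the read-through gene, and 155 are shared between KLK8 and KLK9. In GENCODE 44 the read-through gene has no symbol, and the libraries list genes by symbol, so its listing could not be checked. For any other gene of the set the share was at most 1.42%. Antisense RNAs overlap exons of KLK5 (202 bases), KLK6 (401), KLK10 (240) and SPINK5 (323), and the sources used here do not say whether the counting used the strand.

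KLK13 and KLK14, trypsin-like members of which KLK14 is a strong protease of the stratum corneum, were near the floor of detection. KLK13 had 4, 3 and 2 counts in untreated cells, 1 and 1 in EGF replicates 2 and 3 and no entry in EGF replicate 1, and 1, 2 and 1 with bleogen pB1. The ratio of EGF to untreated was 0.219 with an exact counting interval of 0.023 to 1.06, so that a difference was not detectable at this depth. KLK14 had 6 and 5 counts in untreated replicates 1 and 2 and no entry in replicate 3, 1, 6 and 2 counts with EGF and 3, 2 and 4 with bleogen pB1. Its ratio of EGF to untreated was 0.805 (exact counting interval 0.295 to 2.14). These intervals cover counting error only.

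With bleogen pB1 none of the 8 genes tested was called by edgeR or by DESeq2, and 1.48% of all genes tested were called by edgeR. In the fit of all 9 libraries an unadjusted edgeR p under 0.05 was found for 2 of them, KLK5 and KLK10, both with lower values. With edgeR on the 6 libraries compared, KLK5 had an adjusted p of 0.023 at a log2 fold change of -0.265. KLK10 also passed the adjusted p limit under an alternative. Its log2 fold change was -0.438 to -0.4 over the alternatives that kept all replicates, with edgeR, DESeq2 or limma adjusted p of 0.0042 to 0.166. Both changes were under the fold limit. Libraries of the bleogen pB1 and untreated groups did not overlap for 3 of the 8, KLK5 and KLK10 (lower) and KLK11 (higher), against 29.1% of all genes tested. The median log2 fold change of the 8 was -0.09 and that of all genes tested -0.001.

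EGF-treated and bleogen pB1-treated cells were also compared directly, at their different doses. KLK11 was called, with a log2 fold change of -1.07 (SE 0.26, interval -1.63 to -0.51, edgeR adjusted p = 0.0032), which is 2.10-fold lower with EGF. It was the only one of the 8 genes called, against 28.8% of all genes tested. KLK5 (-0.32, SE 0.09, edgeR adjusted p = 0.0078) and KLK10 (0.47, SE 0.15, edgeR adjusted p = 0.015) had an adjusted p under 0.05 with opposite signs but a change under the fold limit. The KLK10 value depended on single libraries. It passed the fold limit without EGF replicate 1 (0.67, edgeR adjusted p = 5.1e-05) or bleogen pB1 replicate 1 (0.54, edgeR adjusted p = 0.018), and its adjusted p rose above 0.05 without EGF replicate 2 (0.27, edgeR adjusted p = 0.056) or bleogen pB1 replicate 2 (0.41, edgeR adjusted p = 0.051). With limma on FPKM it was 0.35, with adjusted p of 0.074 to 0.082. For SPINK5 the difference was 0.10 (SE 0.13, interval -0.17 to 0.38, edgeR adjusted p = 0.51), and for KLK7 it was -0.35 (SE 0.15, interval -0.67 to -0.03, edgeR adjusted p = 0.058).

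**Figure D3:**
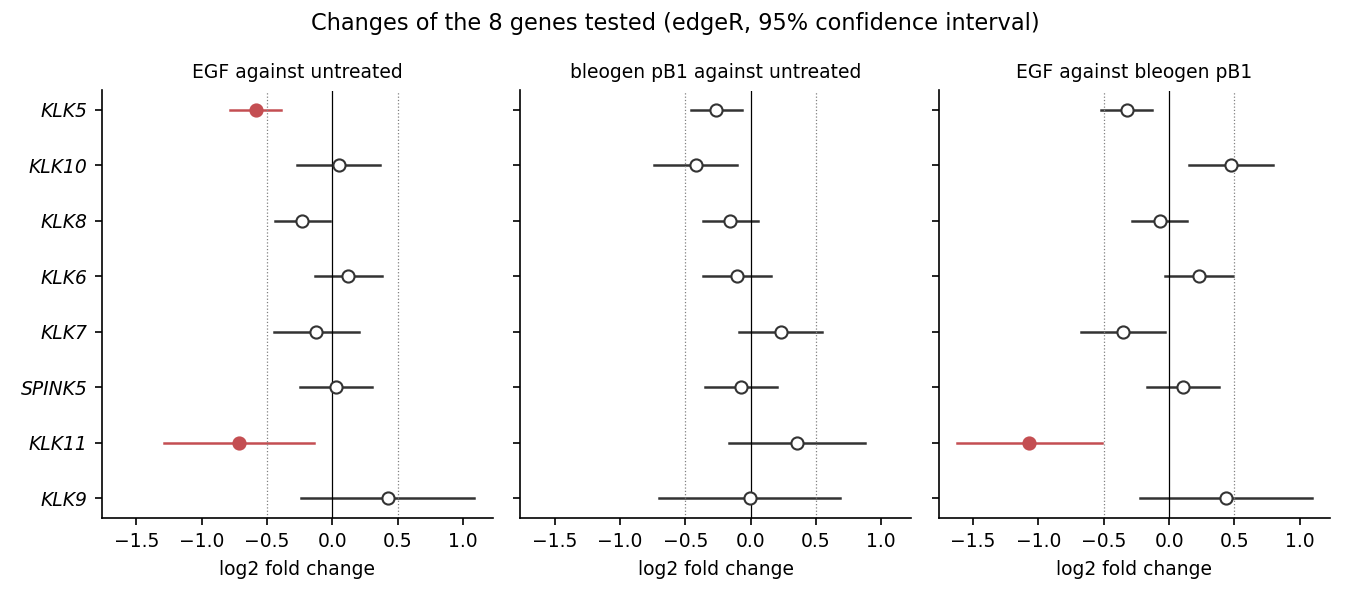
log2 fold change of the 8 genes tested in 3 comparisons, with the 95% confidence interval from the edgeR fit. Filled red points are called, dotted lines mark the fold limit of 0.5, and the called points are KLK5 and KLK11 with EGF against untreated cells and KLK11 with EGF against bleogen pB1.

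The make-up of the kallikrein transcripts differed with EGF. KLK5 made up 67.2 to 67.5% of the summed FPKM of the 9 kallikreins in untreated cells and 67.2 to 67.8% with bleogen pB1, but 55.8 to 60.2% with EGF. KLK10 stood at 31.2 to 31.5% of the level of KLK5 in untreated cells, at 40.1, 52.9 and 52.5% in the EGF libraries and at 26.6 to 28.8% with bleogen pB1. The 3 groups of this proportion did not overlap. KLK5 and KLK10 together gave 84.3 to 88.8% of the sum in every library. The summed kallikrein level was 115, 112 and 84.1 times that of SPINK5 in untreated, 62.0, 88.5 and 85.0 times in EGF-treated and 102, 77.1 and 92.8 times in bleogen pB1-treated cells. The means of 104 ± 17.2, 78.5 ± 14.4 and 90.5 ± 12.4 (SD, n = 3) differed by less than 2 SD, and the groups overlapped. These proportions are descriptions of transcript levels, given with no test, and say nothing of the amount of enzyme.

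**Figure D4:**
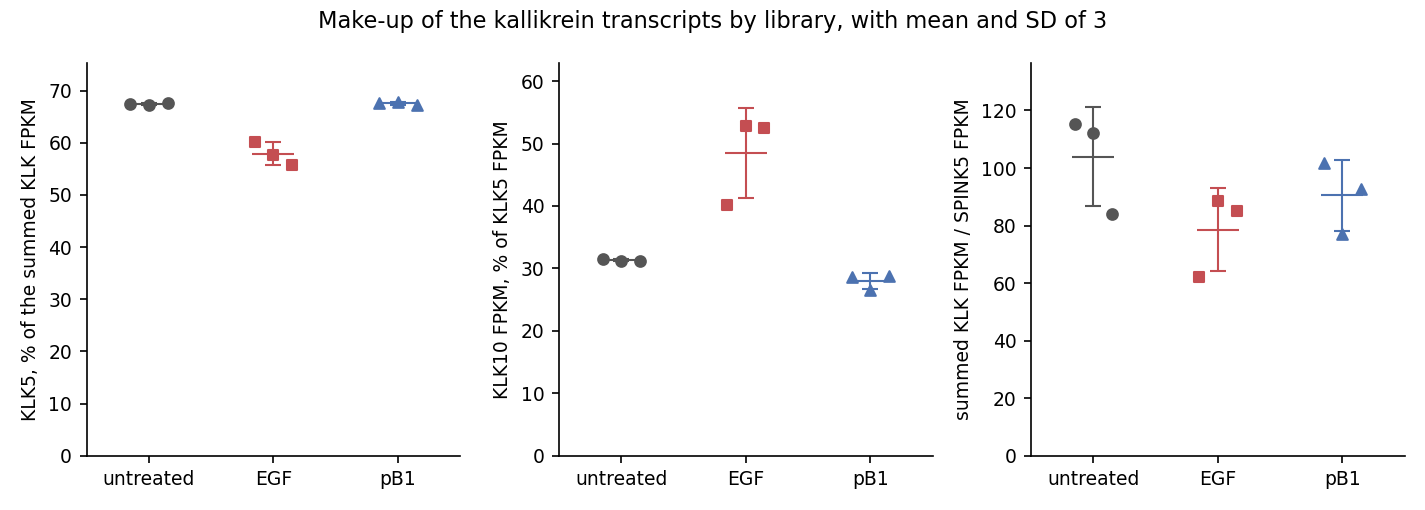
KLK5 as a percentage of the summed kallikrein FPKM, KLK10 as a percentage of KLK5, and the ratio of summed kallikrein to SPINK5 FPKM, with 1 point per library and bars for the mean ± SD of 3 libraries. The EGF libraries stand apart from the other groups in the panels for KLK5 and KLK10 and overlap them in the ratio to SPINK5.

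The profiles over the 9 libraries most like that of KLK5, by the root mean square distance of centred log2 CPM, were those of GPR108 (0.057), PILRB (0.063) and NOP53 (0.065), against a median distance of 0.348 over all genes tested. For SPINK5 they were SNTB2 (0.086), PIGK (0.091) and ZZEF1 (0.091), against a median of 0.255. Both sets were picked as the smallest distances, so that they lie below the median by construction. Each of these SPINK5 neighbours had group means within 0.08 of its overall mean on the log2 scale.

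Genes that act before the kallikreins, their other inhibitors, their substrates and a second protease system were counted in the same comparison, in which 36.9% of all genes tested were called, 21.8% lower. Of 14 upstream proteases and their inhibitors, 9 passed the count filter, 1 was called higher with EGF and 2 lower. This is 33.3% of those tested, near the share of all genes, with a median log2 fold change of -0.07 against -0.01 for all genes. MEP1A, the metalloprotease meprin alpha, had 15, 28 and 15 counts in untreated and 33, 55 and 49 in EGF-treated cells (log2 fold change 1.27, SE 0.35, edgeR adjusted p = 0.0068). PLAT, tissue plasminogen activator, fell, with counts of 394, 389 and 378 in untreated and 140, 162 and 149 in EGF-treated cells (-1.33, SE 0.11, edgeR adjusted p = 4.9e-07). PRSS8 (prostasin), a membrane-anchored epidermal protease, was at 60.3 to 67.9 FPKM in untreated and 35.3 to 48.0 FPKM in EGF-treated cells (-0.56, SE 0.11, edgeR adjusted p = 0.00050). The PRSS8 call was lost at the fold limit without EGF replicate 1, and the MEP1A call on the log2(FPKM + 1) scale. ST14 (matriptase), an activator of the KLK5 precursor, was at 70.3 to 70.9 FPKM in untreated and 56.2 to 61.6 FPKM in EGF-treated cells, and its change of -0.18 (log2, SE 0.06, edgeR adjusted p = 0.013) was under the fold limit. Its inhibitors SPINT1 and SPINT2 were not called (0.07 and -0.07).

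Of 22 other epidermal protease inhibitors, 6 passed the filter. PI3 (elafin), an inhibitor of elastase, had 0, 1 and 0 counts in untreated, 12, 18 and 18 in EGF-treated and 3, 1 and 1 in bleogen pB1-treated cells, and passed the filter only through the EGF libraries, so that its call is no support. The ratio of EGF to untreated was 47.2 with an exact interval of 8.08 to 1900, which covers counting error only. Without PI3, 5 genes were tested, of which 2 were called higher and 2 lower with EGF (80% against 36.9% of all genes), with a median log2 fold change of -0.08. SERPINA1 (alpha-1-antitrypsin) had 12 to 26 counts in untreated and 82 to 89 in EGF-treated cells (2.37, SE 0.26, edgeR adjusted p = 5.9e-06). SERPINB8, an intracellular serpin, was at 10.6 to 11.2 FPKM in untreated and 33.2 to 42.7 FPKM in EGF-treated cells (1.86, SE 0.11, edgeR adjusted p = 3.0e-08). SLPI and SERPINB6 were the genes called lower (-0.73 and -0.56). The other 9 SPINK genes of this list, from SPINK1 to SPINK14, are not listed in any of the 9 libraries.

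Of 23 kallikrein substrates and corneodesmosome genes, 13 passed the filter, and with EGF 1 was called higher and 3 lower (median log2 fold change -0.27). This is 30.8% of those tested, against 36.9% of all genes. The cytokine IL1B was at 9.11 to 10.4 FPKM in untreated and 23.7 to 27.5 FPKM in EGF-treated cells (1.43, SE 0.10, edgeR adjusted p = 1.7e-07). F2R, the thrombin receptor PAR1, fell, with 56.2 to 65.1 FPKM in untreated and 26.7 to 36.1 FPKM in EGF-treated cells (-0.94, SE 0.12, edgeR adjusted p = 1.7e-05). DSP (desmoplakin), which links desmosomes to keratin, fell, with ranges of 105 to 114 FPKM and 55.2 to 74.3 FPKM (-0.70, SE 0.09, edgeR adjusted p = 2.8e-05). F2RL1, the receptor PAR2 that KLK5 and KLK14 can cleave, was 0.22 higher on the log2 scale (SE 0.11), which was not called (edgeR adjusted p = 0.084). The shedding substrates CDSN, DSG1 and DSC1 had at most 18 counts in any library and did not pass the filter.

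Of 15 cathepsin, cystatin and related genes, a second protease system of the epidermis, 14 passed the filter. Of these, CASP14, with 17, 17 and 6 counts in untreated and 2, 3 and 7 in EGF-treated cells, passed it only through the other groups. Of the remaining 13 genes, 1 was called higher and 5 lower with EGF (46.2% against 36.9% of all genes), with a median log2 fold change of -0.30. The log2 fold changes of the lysosomal proteases CTSH, CTSS and CTSB were -1.78 (SE 0.12), -1.31 (SE 0.27) and -1.07 (SE 0.07), with edgeR adjusted p of 6.9e-08, 0.00082 and 7.6e-08. CTSL was the gene called higher (0.72, SE 0.07, edgeR adjusted p = 1.5e-06). With bleogen pB1, none of the 42 tested genes of these 4 lists was called by edgeR or DESeq2 on all 9 libraries. By edgeR adjusted p alone, PKP1 (log2 fold change 0.25), CTSV (0.28) and DSC2 (0.21) passed as higher. CSTA (-0.29) and FLG (-0.44) passed as lower, and all of these changes were under the fold limit. Of the 42 genes, 16 had an unadjusted edgeR p under 0.05, a larger share than the 22.2% of all genes tested (2750 of 12394). CTSS was called by edgeR on the 6 libraries compared.

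**Figure D5:**
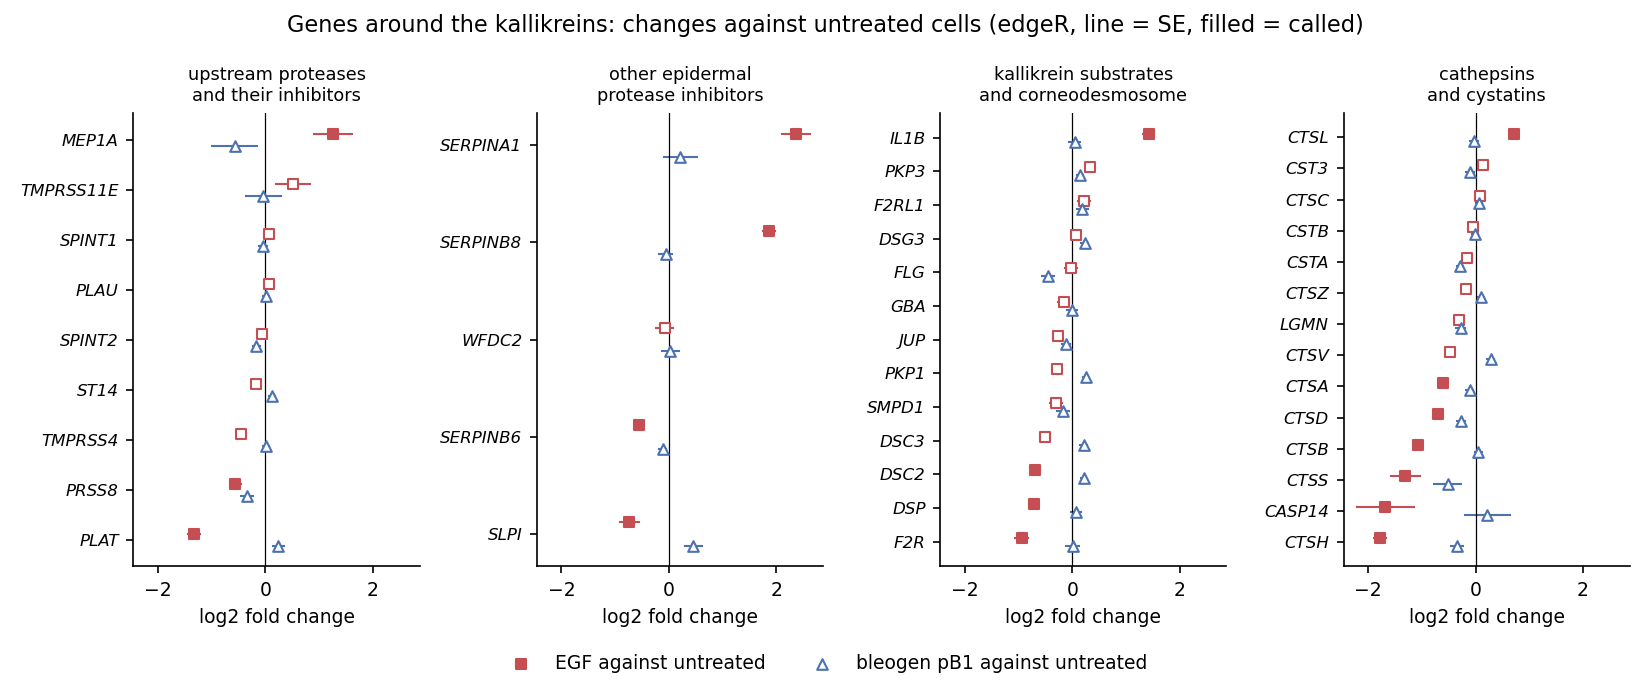
log2 fold change against untreated cells of the list genes that passed the count filter (PI3, with 1 count in untreated cells, is left out), as squares for EGF and triangles for bleogen pB1, with a line for the SE and filled symbols for called genes. The filled symbols are all squares, since no gene of these lists was called with bleogen pB1 in the fit of all 9 libraries.

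Of the 6 other kallikrein genes of the cluster, KLK4, KLK12 and KLK15 did not pass the filter, KLK2 and KLK3 are not listed in any library, and KLK1 was tested. KLK1, the tissue kallikrein that releases kinins, had 24, 18 and 20 counts in untreated, 3, 4 and 4 in EGF-treated and 12, 7 and 10 in bleogen pB1-treated cells. The 3 groups did not overlap in counts. KLK1 passed the filter only through the groups where it is higher and was not tested where every library had to reach 10 counts, so that its edgeR call with EGF is given no weight. The ratio of EGF to untreated was 0.174, with an exact interval of 0.0828 to 0.334 that covers counting error only. A set of 23 other protein-coding genes is annotated within 250000 bases of the kallikrein cluster or of SPINK5. It includes the read-through gene that joins KLK8 and KLK9, which could not be looked up by symbol. Of the others, only CTU1 passed the filter, with a log2 fold change of 0.22 with EGF (SE 0.13, edgeR adjusted p = 0.16).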

How the data were processed

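The members and the gene lists were chosen with earlier results of these data known. The authors had polyadenylated RNA sequenced by BGI and mapped to GRCh38.p12 (per the submitters' processing notes); the program that counted reads is not given in the sources used here. The deposited expected counts are unscaled estimates per gene, the FPKM deposited by the authors scale them for length and depth, and the gene length deposited by the authors varies between libraries. A gene without an entry in a library was counted as 0. Replicate libraries of a group differed by more than sampling noise (chi-square per degree of freedom 3.78 to 20.2 over 9 pairs).

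Expected counts were rounded and tested with edgeR 4.0.16 (R 4.3.3): filterByExpr (12394 genes), TMM factors, glmQLFit and glmQLFTest on all 9 libraries with 1 coefficient per group, which leaves 6 residual degrees of freedom. Adjusted p-values are Benjamini-Hochberg values over these genes. The SE was derived from the quasi-likelihood F and the size of the log2 fold change. CPM used these factors. A two-sided exact permutation test of 3 against 3 libraries cannot give a p under 0.1. Intervals of count ratios are exact (95%). Alternatives were DESeq2 1.42.0, edgeR on 6 libraries, RLE, upper-quartile or no factors, other count filters, limma 3.58.1 on log2(FPKM + 1) or log2(FPKM + 0.1), other call limits, a replicate block and each replicate left out. The scripts were tested on simulated data.

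All 10 genes of the set were named. Of each list, up to 3 called genes with the largest change and no overlap of libraries were named. Other list genes (ST14, SPINT1, SPINT2, SLPI, SERPINB6, F2RL1, CTSL, CASP14, CDSN, DSG1, DSC1, CTU1, CLEC11A, FLG, PKP1, CTSV, DSC2 and CSTA) were named after their values were seen. Profile neighbours were the 3 with the smallest distance. Gene positions and shared 50-base stretches are from GENCODE 44 and promoter windows from RefSeq, on the primary assembly of GRCh38 that the files use. Python 3.11.15 with pandas 2.3.3, numpy 2.4.6 and scipy 1.17.1 made the summaries.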

Additional observations from a re-analysis of the deposited data

How the results depend on the processing

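Low counts limit KLK9, KLK11, KLK13, KLK14, KLK1 and PI3, and the uncertain origin of shared reads limits KLK8 and KLK9. Correlations of deviations between same-numbered libraries were 0.004 to 0.045 for EGF and untreated and -0.03 to 0.207 for bleogen pB1 and untreated. For EGF and bleogen pB1 they were 0.027 to 0.056. Between different-numbered libraries they were -0.076 to 0.041, -0.253 to 0.163 and -0.078 to 0.05 in the same order. The ranges overlapped, and so few values cannot decide whether replicate numbers paired the libraries. With the replicate block, 2, 0 and 1 of the genes of the set were called in these comparisons, as without it.

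With EGF against untreated cells, 2 of the genes were called. The count was 1 with limma on log2(FPKM + 1), with or without a filter at an FPKM of 1, where KLK11 was at -0.49, and 0 with a limit of 1 on the log2 fold change. It was 1 to 2 with 1 replicate left out, and 1 without EGF replicate 1, 2 or 3 or untreated replicate 2 or 3. With EGF against bleogen pB1 the count of 1 became 3 by adjusted p alone and 1 to 2 with 1 replicate left out (KLK10 from 0.273 to 0.665). With bleogen pB1 against untreated cells the count was 0 under each alternative run. KLK9 was not among the genes fitted under the FPKM filter.

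Signs turned only for differences that were never called. KLK10 with EGF was at -0.054 with upper-quartile and -0.006 with no scaling factors, -0.05 with limma on log2(FPKM + 1) (with or without the filter), -0.051 on log2(FPKM + 0.1) and -0.151 to 0.241 with 1 replicate left out (lowest without EGF replicate 2). SPINK5 with EGF was at -0.077 with upper-quartile and -0.030 with no factors, -0.034 and -0.041 with limma, and -0.033 to 0.145 with 1 replicate left out, with -0.033, -0.023 and -0.019 without untreated replicate 1, untreated replicate 2 or EGF replicate 1. Upper-quartile factors moved the median of all genes with EGF to -0.118, and to -0.1 against bleogen pB1. KLK9 with bleogen pB1 was at 0.006 with no factors, 0.002 with limma on log2(FPKM + 1), 0.007 and 0.021 without untreated replicate 1 or 2, and 0.173 and 0.043 without bleogen pB1 replicate 1 or 3, in a range of -0.282 to 0.173 with 1 replicate left out. SPINK5 with bleogen pB1 was at 0.042 without untreated replicate 3 and -0.171 to 0.042 with 1 replicate left out. The cause was not tested in these cases.

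Among the lists, KLK1 with EGF left the count at 0 of the other kallikrein genes with at least 10 counts required in every library, since it was then not tested. With bleogen pB1 it gave a count of 1 with limma in all 3 forms and 0 to 1 with 1 replicate left out. Between EGF and bleogen pB1 the count of 1 became 0 with DESeq2, with edgeR on the 6 libraries, with the 10-count filter and with limma on log2(FPKM + 1), filtered or not, and was 0 to 1 with 1 replicate left out. CLEC11A was called beside the cluster (1 gene in place of 0) with EGF without a count filter and with EGF replicate 1, 2 or 3 or untreated replicate 3 left out (0 to 1), and between EGF and bleogen pB1 without EGF replicate 1 (0 to 1). With bleogen pB1, FLG was called without untreated replicate 2 (0 to 1 of the substrates) and CTSS with edgeR on the 6 libraries (1 of the cathepsin list). MEP1A dropped out with the 10-count filter, which left 1 upstream gene called between EGF and bleogen pB1. Without PI3 the median of the other epidermal inhibitors with EGF moved from 0.89 to -0.08, which was computed after the data were seen. The ratio of summed kallikreins to SPINK5 in CPM, which is not scaled for length, was 48.3 without treatment, 38.8 under EGF and 41.3 under bleogen pB1.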
